A study of Rattus norvegicus with 11 samples.

Results

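The gene set described here was Syk with 8 further genes of the ITAM signalling pathway, read in rat white blood cells (WBCs) and chosen by gene symbol. They were Syk, Btk, Lyn, Fgr, Fcer1g, Tyrobp, Plcg2, Card9 and Lcp2, 9 of the 32623 genes in the deposited table, and each symbol stood on 1 row. The set was selected on the low level of Syk in Nampt+ samples relative to Nampt++ samples, so that comparison is given as a description with no test. WBCs were taken from male Wistar rats supplied at 7 weeks of age. 4 rats were given collagen-induced arthritis (CIA) with bovine type II collagen in incomplete Freund's adjuvant, with a boost on day 7, and blood came from each of them at about day 8, with Nampt++ status, and again at about day 14, with Nampt+ status. The authors set these statuses by their own PCR of Nampt, which encodes the enzyme that makes nicotinamide mononucleotide for NAD synthesis. 3 normal healthy rats served as controls, which gives 11 samples, and the CIA samples with the same number are from the same rat. Status and day moved together within each rat, so they cannot be told apart.

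An ITAM is a short tyrosine motif in the tail of a receptor-coupled adaptor. In myeloid cells the adaptors Fcer1g (the Fc receptor gamma chain) and Tyrobp (DAP12) lend this motif to Fc receptors, Trem receptors and C-type lectins. Src family kinases such as Lyn and Fgr phosphorylate the motif, Syk docks on it and is activated, and Btk, the scaffold Lcp2 (SLP-76) and the phospholipase Plcg2 carry the signal to calcium and lipid messengers. Card9 links Syk to NF-kappa B, as downstream of the C-type lectin receptors for fungal sugars. Syk, Btk, Lyn and Plcg2 also serve the B cell receptor, and Syk, Fcer1g, Lyn, Plcg2 and Lcp2 serve the collagen receptor of platelets.

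Total counts per sample were 65340027 to 85819418. The haemoglobin share of counts was 16.2% to 30.9% in controls, 6.84% to 37.3% at Nampt++ and 14.8% to 42.8% at Nampt+. The extraction text in the labels speaks of retinas, yet the 6 rod photoreceptor genes checked summed to at most 1.93 FPKM in any sample, FPKM being fragment counts scaled by transcript length and by library size. Of 10 neutrophil markers all were listed and 8 had a mean of at least 1 FPKM, with Ltf and Mpo close to 0, and of 10 monocyte markers 9 were listed and 7 reached 1 FPKM, with Ms4a7 and Cd163 close to 0. All 7 B cell markers found and all 8 platelet markers also reached 1 FPKM. The samples thus held myeloid cells among others, and in bulk RNA fewer cells of a type and less RNA per cell cannot be told apart. Nampt itself had an FPKM of 13.5 to 32.9 in controls, 10.1 to 46.5 at Nampt++ and 11.4 to 36.9 at Nampt+, and in rats 2 and 4 it was higher in the library labelled Nampt+. The groups below follow the labels.

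The adaptors were the most abundant members. By their mean FPKM in controls, Tyrobp ranked 130 and Fcer1g ranked 149 among the 11254 genes with at least 1 FPKM. The kinases Fgr and Lyn ranked 740 and 990, Lcp2 ranked 1427, Syk ranked 1789 and Plcg2 ranked 2460. Btk and Card9 were the lowest members, at ranks 5970 and 7714. FPKM is scaled by transcript length, so these levels can be set side by side between genes. The neighbours Tyrobp (698 ± 373 FPKM, SD, n = 3) and Fcer1g (580 ± 184 FPKM, SD, n = 3) differed by less than their spread over controls, and so did Fgr (89.3 ± 46.1) and Lyn (64.6 ± 32.7).

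**Figure D1:**
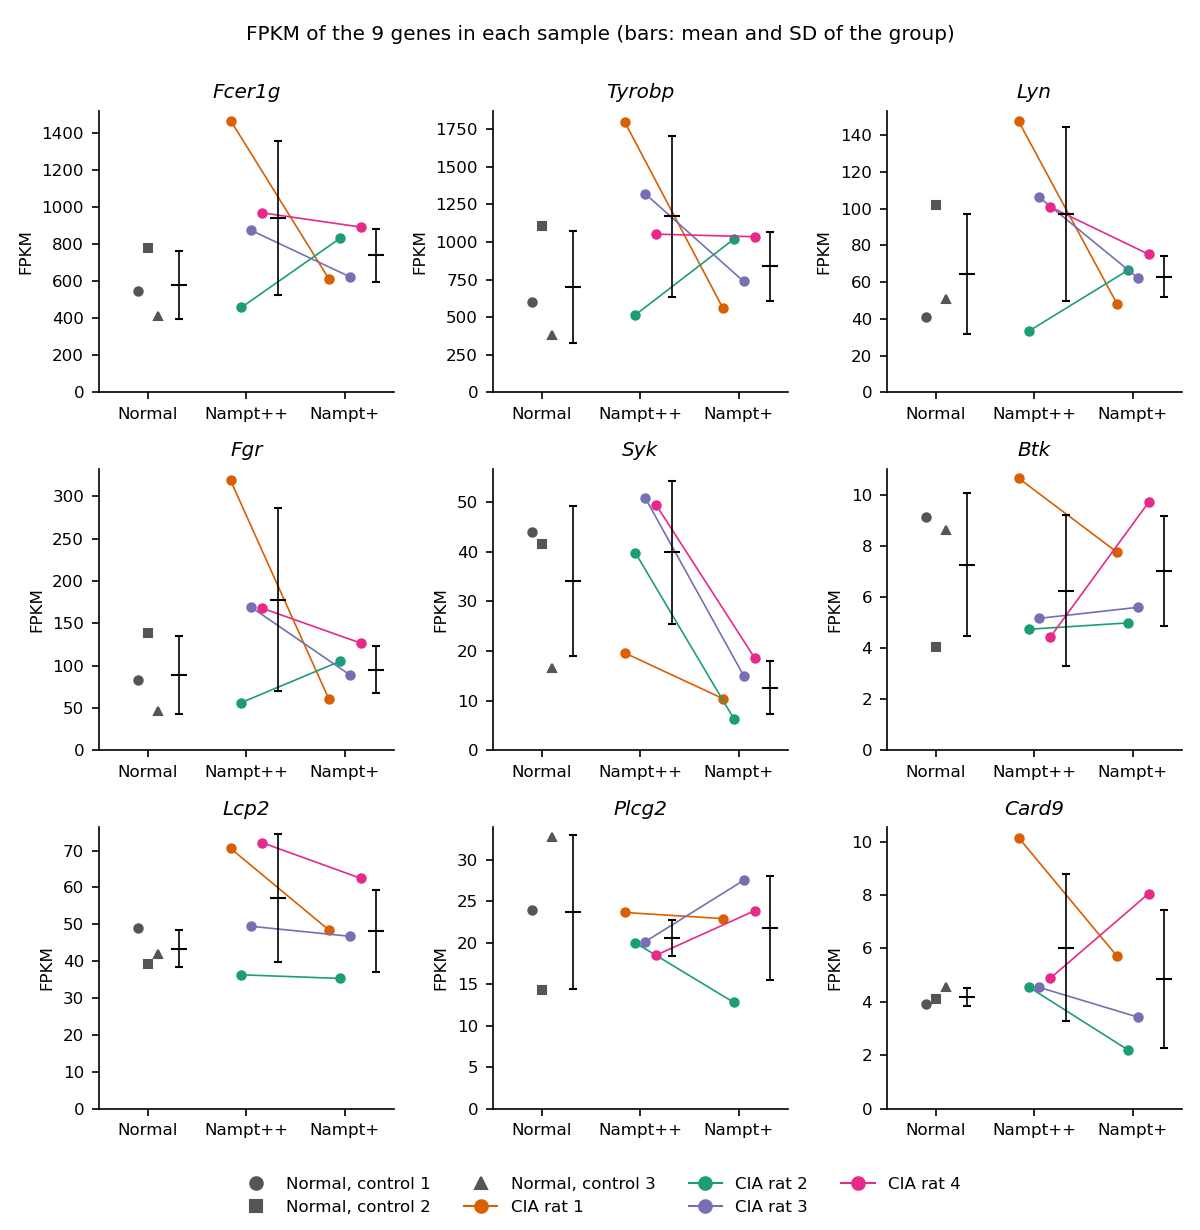
Each panel plots the FPKM (y axis, linear from 0) of 1 gene in the 3 Normal, 4 Nampt++ and 4 Nampt+ samples (x axis), with lines joining the samples of 1 rat and bars for the mean and SD of each group. The 4 lines for Syk all run downward, while in the panels of Fcer1g, Tyrobp, Lyn and Fgr rat 2 runs upward and the other rats downward.

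Syk had the pattern that chose the set. The gene is listed on the minus strand of chromosome 17 from 12614311 to 12669573 of the deposited annotation, whose build is not named in the sources used here, with 2 protein-coding transcripts. Its FPKM was 43.8, 41.5 and 16.6 in controls 1 to 3. In rats 1 to 4 it was 19.6, 39.7, 50.8 and 49.4 at Nampt++, and at Nampt+ it was 10.4, 6.38, 15.0 and 18.6. In FPKM the Nampt++ and Nampt+ samples did not overlap, but the highest Nampt+ value and the lowest Nampt++ value were close. With haemoglobin genes left out they did overlap. On log2(FPKM + 1) Syk was then 4.46 in rat 1 at Nampt++ and 4.52 in rat 4 at Nampt+. The low Nampt++ value was that of rat 1, and control 3 had less than the other controls, so these 2 samples lay just above and within the Nampt+ range. The means were 34.0 ± 15.1 in controls (SD, n = 3), 39.9 ± 14.4 in Nampt++ samples (n = 4) and 12.6 ± 5.35 in Nampt+ samples (n = 4). These levels rested on 2502 to 23985 reads per sample, so counting error was small beside the differences between rats.

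The RefSeq table of promoters, on the assembly GRCr8, held 5 of the 9 members (Syk, Btk, Fgr, Plcg2 and Card9), each as 250 bases before and 50 after the start. The windows of Syk, on which the results turn, and of Fgr, the member with the next largest difference between the CIA groups, are printed 5′ to 3′ on the strand of the gene, at chr17:12813224-12813523 (minus strand) and chr5:150473547-150473846 (plus strand). Capitals mark the letters GAGGAA, the core bound by PU.1, the ETS factor of myeloid and B cells, searched as GAGGAA and its reverse complement TTCCTC.
Syk: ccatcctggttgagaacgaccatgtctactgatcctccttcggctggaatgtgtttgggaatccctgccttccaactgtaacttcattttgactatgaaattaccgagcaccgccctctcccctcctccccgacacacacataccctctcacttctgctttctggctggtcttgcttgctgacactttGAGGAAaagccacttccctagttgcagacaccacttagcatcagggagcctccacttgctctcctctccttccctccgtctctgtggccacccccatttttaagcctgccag
Fgr: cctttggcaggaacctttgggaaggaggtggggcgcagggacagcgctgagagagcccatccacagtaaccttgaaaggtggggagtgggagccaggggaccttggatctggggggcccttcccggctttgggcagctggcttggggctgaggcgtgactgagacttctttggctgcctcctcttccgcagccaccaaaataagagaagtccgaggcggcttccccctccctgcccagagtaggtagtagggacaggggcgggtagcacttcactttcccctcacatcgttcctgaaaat
Syk held 1 match, at position -62 from the start site, and Fgr held none. Btk and Plcg2 also held 1 match each and Card9 none, while 27.6% of all 33469 promoter windows of this length held at least 1. A match describes these letters alone, and RNA levels carry no measure of binding there.

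Between the 2 CIA statuses Syk differed in the same direction in every rat. The ratio of Nampt+ to Nampt++ FPKM was 0.530 in rat 1, 0.161 in rat 2, 0.296 in rat 3 and 0.377 in rat 4. From the fit over all genes (edgeR, on counts) the log2 fold change of Syk was -1.67 (SE 0.33), and the ratio of mean FPKM was 0.316. Of the 11219 genes tested, 31 had a lower ratio. Calling a gene took an unadjusted p under 0.05 together with a ratio of mean FPKM above 2 or below 0.5, and 0.33% of all genes were called lower in Nampt+ samples. Genes whose samples did not overlap in FPKM and were lower at Nampt+ made up 0.321%. Syk, chosen on this contrast, was in both counts, and nothing is read from that. The 2 statuses overlapped for each of the other 8 members.

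The other 8 members had log2 fold changes from -0.67 (SE 0.49) for Fgr to 0.26 (SE 0.32) for Btk. Counting Syk, the mean FPKM of 7 members was lower at Nampt+ and that of Btk and Plcg2 was higher. The median log2 ratio of mean FPKM was -0.35 over the 9 members and -0.04 over all genes tested. The adaptors Fcer1g and Tyrobp had log2 fold changes of -0.12 (SE 0.39) and -0.24 (SE 0.45). These came to 0.14 and 0.00 without the Nampt++ sample of rat 1, and to -0.53 and -0.73 without the Nampt+ sample of rat 2.

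**Figure D2:**
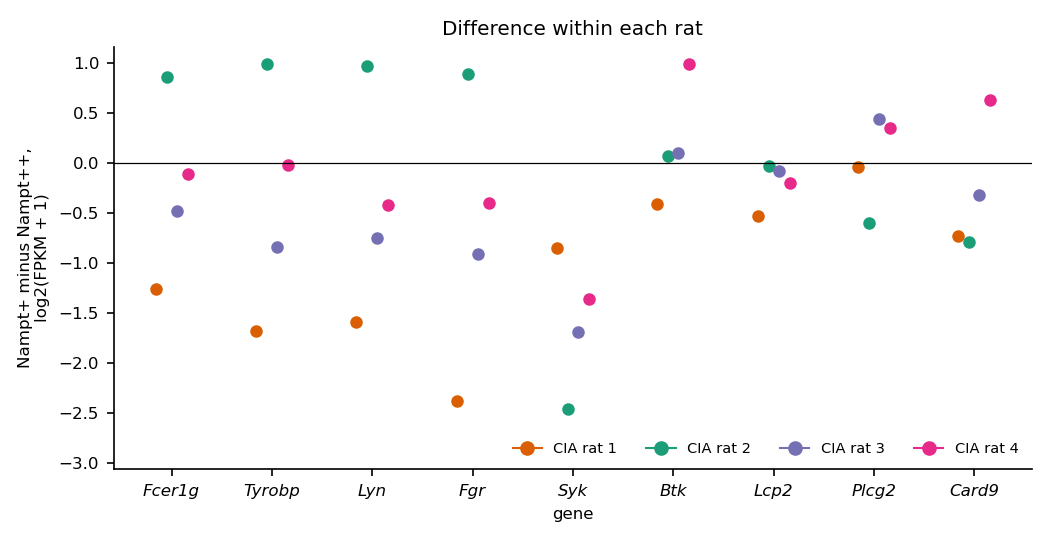
The y axis gives the difference between the Nampt+ and the Nampt++ sample of each of the 4 rats in log2(FPKM + 1), and the x axis the 9 genes. All 4 points of Syk lie between -2.46 and -0.85, and the points of the other genes except Lcp2 lie on both sides of 0.

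Within rats, Lcp2 was the other member that was lower at Nampt+ in all 4, by 0.04 to 0.53 on the log2(FPKM + 1) scale. Lcp2 is the scaffold that brings Plcg2 and the Vav exchange factors to activated Syk. Its FPKM was 70.6, 36.3, 49.4 and 72.1 at Nampt++ and 48.4, 35.3, 46.7 and 62.5 at Nampt+ in rats 1 to 4. When values were scaled by TMM or without haemoglobin genes, Lcp2 was lower in 3 of the 4 rats, and Syk was lower in all 4 under both.

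In FPKM, Fcer1g, Tyrobp, Lyn and Fgr were each highest in rat 1 at Nampt++. Each was higher at Nampt+ than at Nampt++ in rat 2 and lower in the other 3 rats. For the adaptors this depended on the scaling. On log2 CPM with TMM, rat 2 at Nampt+ exceeded rat 1 at Nampt++ for Tyrobp (10.10 against 10.01) and Fcer1g (9.87 against 9.78). With haemoglobin genes left out, Tyrobp in rat 4 was higher at Nampt+ by 0.09 on log2(FPKM + 1). Tyrobp had an FPKM of 603, 1109 and 382 in controls 1 to 3. In rats 1 to 4 it reached 1801, 515, 1320.3 and 1052 at Nampt++ and 558, 1019, 737 and 1035 at Nampt+. The Nampt++ sample of rat 1 was the highest and control 3 the lowest. Fcer1g was 549, 777 and 413 in controls, 1468, 458, 874 and 969 at Nampt++ and 611, 831, 624 and 893 at Nampt+. The ratio of the 2 adaptors stayed between 0.662 and 1.10 in all 11 samples. Fgr, a Src family kinase of neutrophils and monocytes, was 82.7, 138 and 46.9 in controls, 319, 56.5, 169 and 168 at Nampt++ and 60.2, 105, 89.3 and 127 at Nampt+. Lyn, the Src family kinase that also feeds inhibitory receptors, was 41.0, 102 and 50.9 in controls, 148, 33.5, 106 and 101 at Nampt++ and 48.2, 66.4, 62.4 and 75.2 at Nampt+. In that sample of rat 1 Syk was lowest among Nampt++ samples. The groups overlapped for each of them.

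The summed FPKM of the 10 neutrophil markers also peaked in rat 1 at Nampt++, with 40199.5. It was lowest in control 3 (2074), in rat 2 at Nampt++ (2882) and in rat 1 at Nampt+ (3664), the same 3 samples that were lowest for Tyrobp and Fgr. By group it was 2882 to 40199.5 at Nampt++, 3664 to 15446 at Nampt+ and 2074 to 13948 in controls. The sum of the monocyte markers was 5689.6 to 12759.8 at Nampt++, 5403 to 13731 at Nampt+ and 4201 to 10617 in controls. Beside these sums, Syk was 19.6 FPKM in rat 1 at Nampt++, 16.6 in control 3, 39.7 in rat 2 at Nampt++ and 10.4 in rat 1 at Nampt+. The part of cell composition in the difference of Syk was not tested.

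Among the members that also serve the B cell receptor, Plcg2 differed between samples in another way than Btk. Plcg2, the phospholipase C of B cells, myeloid cells and platelets, was 24.0, 14.3 and 32.8 FPKM in controls, 23.7, 20.0, 20.1 and 18.5 at Nampt++ and 22.9, 12.8, 27.5 and 23.9 at Nampt+. In FPKM it was highest in control 3 and lowest in rat 2 at Nampt+ and in control 2. The low place of rat 2 depended on the scaling. On log2 CPM with TMM, Plcg2 at Nampt+ was 6.44 in rat 2, above rat 1 (6.41) and rat 4 (6.34). The marker sums that follow were read in FPKM alone. The summed FPKM of the 7 B cell markers was likewise highest in control 3, at 762, and lowest in control 2 (159) and the Nampt+ sample of rat 2 (184). By group that sum was 251 to 346 at Nampt++, 184 to 394 at Nampt+ and 159 to 762 in controls. The sum of the 8 T cell markers had the same extremes. It was highest in control 3 (1066) and lowest in the Nampt+ sample of rat 2 (289) and control 2 (438). The part of either cell type in the level of Plcg2 was not tested. Btk, the Tec family kinase lost in X-linked agammaglobulinaemia, was 9.12, 4.03 and 8.61 in controls, 10.6, 4.74, 5.16 and 4.42 at Nampt++ and 7.75, 4.99, 5.59 and 9.70 at Nampt+. Card9, the adaptor that joins Syk to Bcl10 and Malt1, was 3.91, 4.10 and 4.56 in controls, 10.2, 4.54, 4.54 and 4.88 at Nampt++ and 5.71, 2.20, 3.43 and 8.05 at Nampt+. For both genes the Nampt++ sample of rat 1 was far above the other Nampt++ samples. The groups overlapped for Plcg2, Btk and Card9.

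Ratios within a sample do not depend on its depth or scaling. Syk per Lyn was 0.327 to 1.07 in controls, 0.133 to 1.19 at Nampt++ and 0.0960 to 0.248 at Nampt+. Syk per Tyrobp was 0.0375 to 0.0727 in controls, 0.0109 to 0.0771 at Nampt++ and 0.00626 to 0.0204 at Nampt+. In rat 1 both ratios were higher at Nampt+ than at Nampt++, and in the other 3 rats they were lower. Syk per Lcp2 was 0.398 to 1.06 in controls, 0.278 to 1.09 at Nampt++ and 0.181 to 0.321 at Nampt+, and it was lower at Nampt+ in all 4 rats. Syk per Btk and Syk per Plcg2 were lower at Nampt+ in all 4 rats as well, and control 3 lay within the Nampt+ range for both. With Lyn, Tyrobp or Lcp2 as the divisor, no Nampt+ sample overlapped with the controls. Syk was chosen for its low level in these Nampt+ samples, and the ratios were added after seeing the data. How many other genes separate in this way was not determined, so nothing is read from it.

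**Figure D3:**
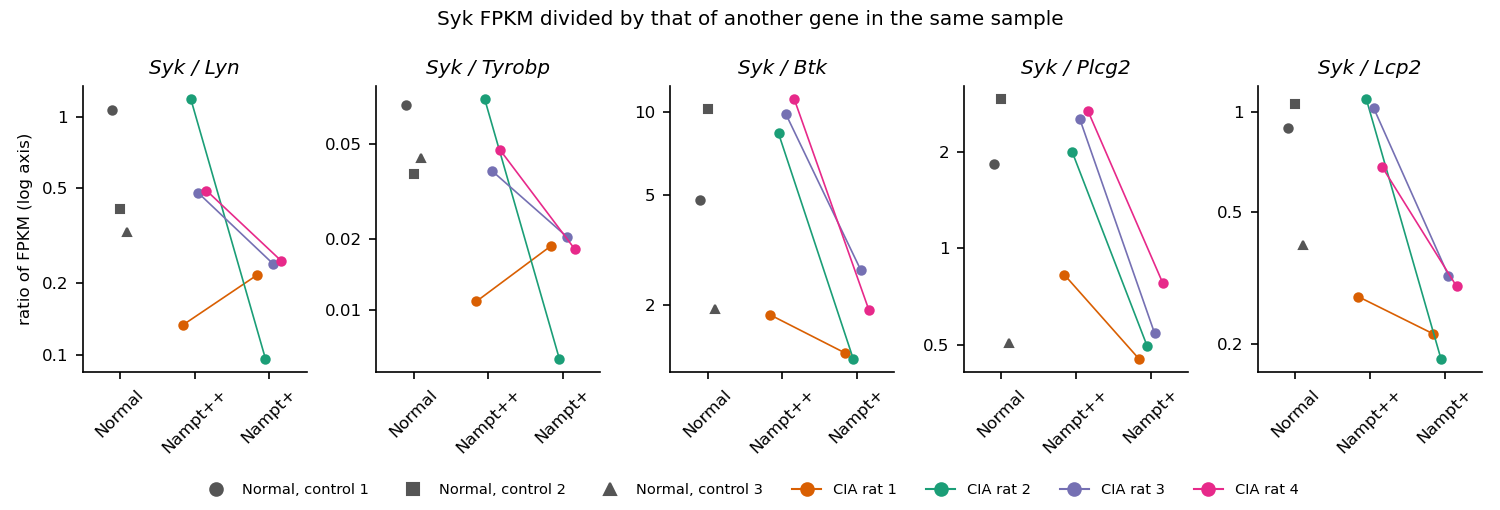
The y axis (log scale) gives the FPKM of Syk divided by that of Lyn, Tyrobp, Btk, Plcg2 or Lcp2 in the same sample, by group on the x axis, with lines joining the samples of 1 rat. For Lyn and Tyrobp the line of rat 1 runs upward to the Nampt+ sample and the other 3 run downward, and for Btk, Plcg2 and Lcp2 all 4 run downward.

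Nampt++ samples were compared with controls to ask how CIA at this status differed from the normal state, and 0 of the 9 members were called, against 0.686% of the 11219 genes tested. The mean FPKM was higher at Nampt++ for 7 members and lower for Btk and Plcg2, with a median log2 ratio of 0.52 over members and 0.01 over all genes. The largest was Fgr, with a mean 1.99 times that of controls, a log2 fold change of 0.77 (SE 0.62) and a two-sided exact permutation p of 0.286. Syk had a log2 fold change of 0.10 (SE 0.52) with a 95% interval of -0.91 to 1.12, and an exact permutation p of 0.457. The Nampt++ samples also took part in the choice of Syk, so this comparison of Syk is not independent of that choice. Without control 3 the log2 fold change of Syk was -0.30, and without control 2 it was 0.47. The adaptors and the scaffold stood at 0.53 (SE 0.45) for Fcer1g, 0.54 (SE 0.56) for Tyrobp and 0.31 (SE 0.24) for Lcp2. Without control 2, Lyn at 1.19 and Tyrobp at 1.32 were called, with unadjusted p of 0.0450 and 0.0364 by edgeR, where 4.09% of all 11303 genes tested without that control were called. With both the Nampt++ sample of rat 1 and control 3 left out, Lyn, Fgr, Fcer1g and Tyrobp had log2 fold changes from -0.14 to -0.03, so their sign turned.

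Against the same controls, Syk was the only member called in Nampt+ samples. It was lower, with a mean ratio of 0.371, a log2 fold change of -1.58 (SE 0.43) and an unadjusted p of 0.00667 by edgeR. In that comparison 0.284% of the 11269 genes tested were called lower and 0.497% in either direction. The p adjusted over all genes by the Benjamini-Hochberg method was 0.99999. The exact permutation test of log2(FPKM + 1), whose smallest p over 35 splits is 0.0286, gave 0.114, since control 3 at 16.6 FPKM lay below the Nampt+ sample of rat 4 at 18.6. These 4 Nampt+ samples are the ones that chose Syk, so the comparison is not independent of that choice. Syk was called in all 15 alternatives, with log2 fold changes of -1.98 without control 3 to -1.21 without control 2. These fits draw on the same samples, so they describe the processing and give no independent support. The other 8 members stood between -0.06 (SE 0.17) for Plcg2 and 0.40 (SE 0.48) for Fcer1g. The exact permutation p of these 8 was 0.229 to 0.971.

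**Figure D4:**
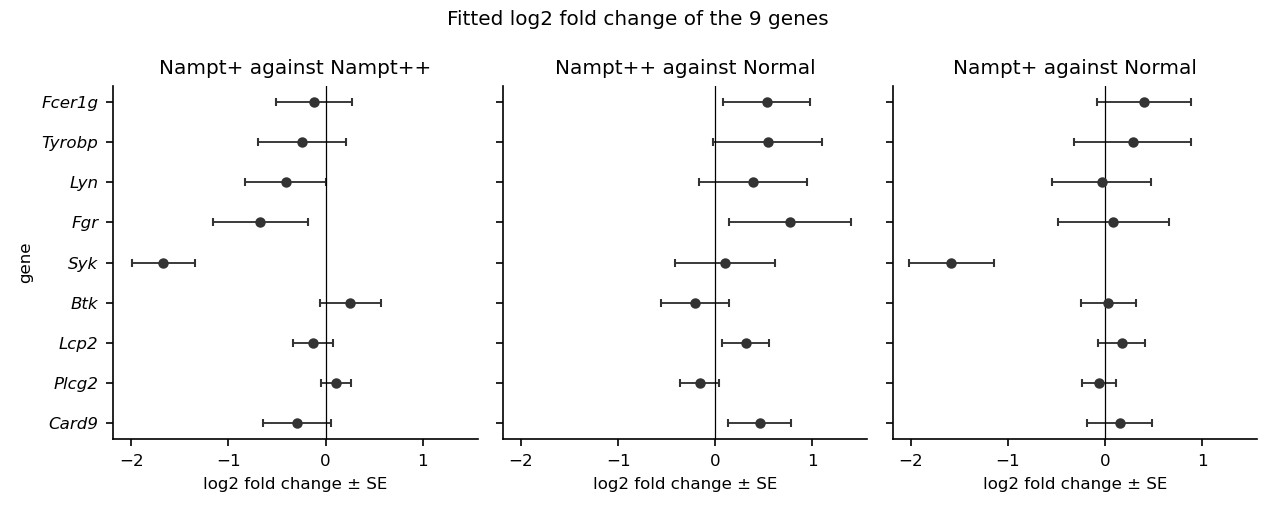
The x axis gives the fitted log2 fold change with its SE for the 9 genes (y axis) in the 3 comparisons of groups. Syk lies at -1.67 and -1.58 in the comparisons that involve Nampt+ samples and at 0.10 for Nampt++ against Normal, and the other 8 genes lie between -0.67 and 0.77.

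The rest of the pathway was read from 6 lists by role, which held 99 symbols, 94 of them found. Of the 91 genes tested between the CIA statuses, 1 was called, which was Ms4a2, the beta chain of the high-affinity IgE receptor of basophils and mast cells. This compares with 0.642% of all genes called. Its FPKM was 0.664, 0.258, 0.910 and 0.427 at Nampt++ and 1.17, 0.421, 2.64 and 5.12 at Nampt+ in rats 1 to 4. The group means were 0.565 and 2.34. Ms4a2 thus met the limit of a mean of at least 1 FPKM only through its Nampt+ samples, and nothing is read from its call. It was higher at Nampt+ in all 4 rats, with a mean ratio of 4.14, a log2 fold change of 1.94 (SE 0.61) and an unadjusted edgeR p of 0.0114, and the adjusted p was 0.99956. Without the Nampt+ sample of rat 4 it was not called. The summed FPKM of the 8 basophil and mast cell markers, which include Ms4a2, was 16.5 to 55.0 at Nampt++ and 17.2 to 189 at Nampt+, and their part in this result was not tested.

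Between the CIA statuses the median log2 ratio of mean FPKM was -0.08 for 20 coupled receptors, 0.15 for 9 other kinases, -0.18 for 15 adaptors and exchange factors, 0.10 for 17 lipid and calcium genes, -0.22 for 9 genes of the CARD complex and NF-kappa B, and -0.08 for 21 inhibitors. The lowest ratios among genes with a mean of at least 10 FPKM were those of Oscar (0.434), Pik3ap1 (0.472), Sirpa (0.546) and Sh3bp2 (0.555). Oscar, an Fcer1g-coupled receptor for collagen, had 80.6 FPKM in the Nampt++ sample of rat 1 and at most 16.6 in any other sample. Sirpa, the inhibitory receptor for Cd47, had 94.7 FPKM in that sample and at most 32.7 elsewhere. The highest ratios were those of Rasgrp1 (1.73), Plcg1 (1.50), Pirb (1.47) and Zap70 (1.29). Zap70 is the Syk family kinase of T and NK cells, with 22.2 to 34.4 FPKM at Nampt++ and 11.6 to 46.0 at Nampt+. None of these 8 passed the test.

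**Figure D5:**
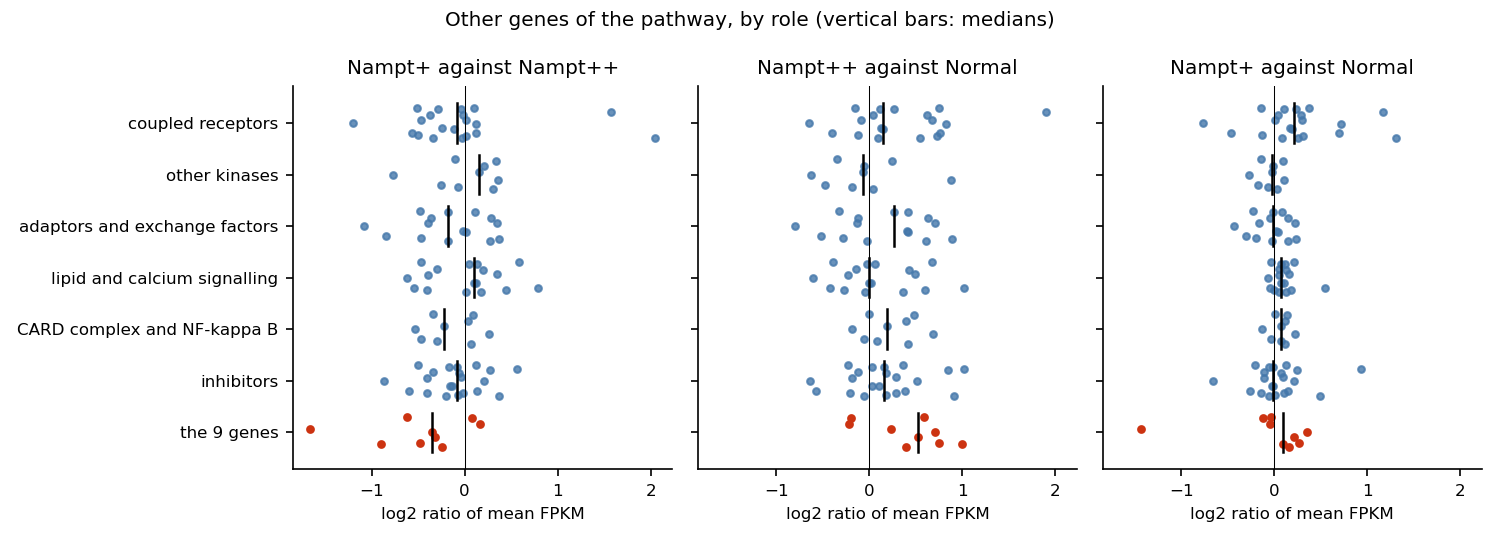
Points give the log2 ratio of mean FPKM (x axis) of the tested genes of 6 pathway lists and of the 9 genes (y axis) in 3 comparisons, with vertical bars for medians. Syk is the leftmost point of the lowest row for Nampt+ against Nampt++ and for Nampt+ against Normal, and the medians of the 6 lists lie between -0.22 and 0.27.

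Against controls, 0 of the 90 list genes tested were called at Nampt++ and 0 of 91 at Nampt+. Over all genes tested, 0.686% and 0.497% were called. Over all genes, 176 of 11219 and 98 of 11269 had an unadjusted edgeR p under 0.05. Among list genes these counts were 1 and 0, too few to tell the lists from all genes. The 1 gene was Cd72, a B cell inhibitory receptor, with 19.8 to 53.4 FPKM in controls and 15.7 to 24.4 at Nampt++ (log2 fold change -0.58, SE 0.25, unadjusted edgeR p 0.0495). Cd79b, the ITAM chain of the B cell receptor, had the lowest ratio in both comparisons among list genes with a mean of at least 10 FPKM, 0.639 at Nampt++ and 0.588 at Nampt+. It was 130.3, 50.8 and 352 FPKM in controls, so control 3 again stood highest. Within the same limit of 10 FPKM, Cd72 (0.642), Zap70 (0.646) and Lat2 (0.697) followed in the Nampt++ comparison, and Oscar (3.72), Sirpa (2.03), Rasgrp4 (2.02) and Fcgr2b (1.87) had the highest. In the Nampt+ comparison, again among genes with at least 10 FPKM, Cd72, Gp6 and Vav2 followed Cd79b with 0.635, 0.725 and 0.743, and Trem1 (1.64), Rasgrp4 (1.46), Fcgr2b (1.41) and Itgam (1.29) had the highest ratios. Without control 2, 8 list genes were called at Nampt++, among them Clec4d, Pik3ap1, Pik3cb, Pik3r5, Fcgr2b and Cd300a, which were higher, and Vav2, which was lower. Without that control, however, 4.09% of all 11303 genes tested were called.

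No member had a profile close to that of Syk. Likeness was the root mean square difference of log2(FPKM + 1), centred on each gene, over the 11 samples, among 4929 genes with a mean of at least 10 FPKM. The 5 nearest were AABR07062183 (0.58), Cst7 (0.66), AABR07030603 (0.68), S100a6 (0.70) and Socs1 (0.70), where the median over all genes was 0.95 and the spread of Syk itself was 0.91. Cst7 encodes the cysteine protease inhibitor cystatin F, S100a6 a calcium-binding protein and Socs1 a brake on cytokine signalling. Cst7 had 14.5 to 38.7 FPKM at Nampt++ and 7.58 to 20.3 at Nampt+, so in FPKM its groups overlapped where those of Syk did not. Among the members with at least 10 FPKM, Lcp2 came nearest at rank 1100, followed by Plcg2 at 3281, Lyn at 3721, Fcer1g at 3833, Tyrobp at 3860 and Fgr at 3891. All of these but Lcp2 were farther from Syk than the median gene. A gene that did not vary over the 11 samples would score 0.91, the spread of Syk itself. Lcp2 scored 0.90, so its rank shows no shared profile.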

How the data were processed

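Poly(A) RNA of WBCs, left after lysis of red blood cells, was sequenced in paired-end reads. According to the submitters' processing notes, cutadapt 1.9, HISAT2 2.0.4 and StringTie 1.3.4 were used. The counting tool and the genome build are not given in the sources used here. The authors deposited whole-number counts of reads per gene, not normalized, and FPKM, the fragments scaled by transcript length and library size, in 1 table. A deposited FPKM of 0.0001 was read as 0. The methods of the study describe strand marking, and the strand setting of the counting is not stated, but no other row of the table overlapped a member. Every symbol of the list stood on 1 row.

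The members and the gene lists were chosen with earlier results of these data known. Counts of genes with a mean of at least 1 FPKM in the compared samples were tested with edgeR 4.0.16 (quasi-likelihood test, TMM normalization, R 4.3.3), a pair of groups at a time. Calls needed an unadjusted p under 0.05 and a ratio of mean FPKM above 2 or below 0.5, the thresholds of the study, and adjustment was by Benjamini-Hochberg over all genes tested. Members were compared with controls with an exact permutation test of log2(FPKM + 1), two-sided (SciPy 1.17.1). No p is given for members between the CIA statuses. Named pathway genes were those called and, in each comparison, the 4 highest and 4 lowest ratios among list genes with a mean of at least 10 FPKM. In the 3 comparisons 0 genes had an adjusted p under 0.05 by edgeR, where DESeq2 1.42.0 gave 5, 5 and 4, and 256, 176 and 98 had an unadjusted p under 0.05.

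CIA samples with the same number are from the same rat, as the sample descriptions give them, so a fit with the rat as a replicate block was an alternative. Over genes, the deviations of such pairs from their group means correlated with r of -0.27, -0.24, 0.24 and 0.08 in rats 1 to 4. Controls share only numbers with CIA rats. The other alternatives were upper quartile scaling, haemoglobin genes left out (11 rows), no filter or a mean of at least 10 FPKM, limma 3.58.1 on log2(FPKM + 1) or log2(FPKM + 0.1), DESeq2, all groups in 1 fit and each sample left out. The ratios within a sample and the fit without both the Nampt++ sample of rat 1 and control 3 were added after seeing the data. The fit was tested on simulated counts with known changes. These counts held no differences in haemoglobin share or cell mix between samples, so nothing is read from them about such differences. The values of 1 list gene are not reported here.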

Additional observations from a re-analysis of the deposited data

Results flagged for a closer look

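In the 4 Nampt++ samples, the FPKM of Btk in rat 1 was 10.6 and stood apart from the other 3, which lay between 4.42 and 5.16, with a gap of 0.880 of the whole range. The FPKM of Card9 in the same sample was 10.2, against 4.54 to 4.88 in the other 3, with a gap of 0.940 of the range. Both gaps exceeded the 95% critical value of Dixon's test for 4 samples, in 18 groups of 4 looked at. Chance alone passes it in about 1 in 20 groups. The same sample had the highest sum of neutrophil markers, at 40199.5 FPKM, and the lowest Syk of the Nampt++ samples, at 19.6 FPKM. Their relation was not tested.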

How the results depend on the processing

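Between the CIA statuses, the log2 fold change of Syk was -1.59 with the rat as a replicate block, and -1.92 to -1.51 with each sample left out. The replicate block changed no call, and Ms4a2 was called in it too. Lcp2 was not lower in all 4 rats with haemoglobin genes left out or on log2 CPM with TMM, so the number of members lower in all 4 fell from 2 to 1 under both. The cause was not tested. The number of members called at Nampt++ against controls ranged from 0 to 2 with each sample left out (2 without control 2, where 4.09% of all genes were called). The 1 pathway gene called between the statuses, Ms4a2, dropped out at a mean of at least 10 FPKM, where it was no longer among the genes tested. With each sample left out the pathway count there ranged from 0 to 3. Ms4a2, Rasgrp1 and Pik3ap1 were called without the Nampt+ sample of rat 2, where 1.45% of all genes were called. At Nampt++ against controls the pathway count ranged from 0 to 8, with 8 without control 2, where 4.09% of all genes were called. With both the Nampt++ sample of rat 1 and control 3 left out it was 1 (Cd300lb, lower). At Nampt+ against controls the pathway count ranged from 0 to 1, with Ms4a2 called without control 1 and Cd79b without control 2. The shares of all genes called in these 2 settings were 0.587% and 1.2%. Of the 5 genes most like Syk, 1 was shared when genes with a mean of at least 1 FPKM were admitted. The precision rested on 3 or 4 rats per group, whose samples differed by far more than counting error. The sources of that spread were not separated.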
